A study of Homo sapiens with 20 samples.

Results

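The zinc transporters and metallothioneins comprise 24 membrane transporters and 9 short cytosolic zinc-binding proteins, and were chosen by gene symbol alone: every gene named SLC30A or SLC39A with a number, every gene named MT1 with a letter, and MT2A. They make up 33 of the 17113 genes in the count table, with 10 SLC30A genes, 14 SLC39A genes and 9 metallothioneins (MT2A, MT1A, MT1B, MT1E, MT1F, MT1G, MT1H, MT1M and MT1X). The study sequenced RNA from extracellular vesicles released by 10 established human colorectal cancer cell lines, and total RNA from the cells of the same lines, to ask how far the vesicle transcriptome follows that of its cells of origin. The lines were SW480, LS123, HCT 116, WiDr, LS513, HT-29, SNU-C1, LS1034, COLO-201 and LoVo, all untreated and of unmodified genotype per the labels, and all grown in serum-supplemented RPMI-1640 or DMEM. Each line gave 1 vesicle library and 1 cell library, so the replicate is the cell line, and a value of a single line has no replicate. The labels name the Invitrogen total exosome kit and SMART-Seq v4 with Nextera XT for vesicles, and the Roche KAPA stranded kit with RiboErase for cells, so compartment and library kit cannot be told apart in any result below.

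Zinc reaches the cytosol through SLC39A proteins (ZIP family), which import it across the plasma membrane or release it from organelles, and leaves it through SLC30A proteins (ZnT family), which export it or load it into organelles and secretory vesicles. Both families are multi-pass membrane proteins, made on the endoplasmic reticulum. Metallothioneins are small cysteine-rich proteins of the cytosol that bind zinc and copper, and their genes lie in a cluster on chromosome 16. Metal-responsive transcription factor MTF1 induces metallothionein genes and SLC30A1 through metal response elements in their promoters, and in the gut SLC39A4 takes up dietary zinc.

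The metallothionein coding sequences are close to each other, and how often a read fits several copies was not tested. From the GENCODE 29 transcripts a coding sequence was taken per gene, with preference for the most common length. All 9 sequences taken were 186 bases long, and their 36 pairs shared between 88.7% and 95.2% of their bases. The MT2A frame holds 20 cysteine codons among 61, as do MT1E, MT1G and MT1X. The 4 most abundant members in vesicles are printed below, with capitals marking the bases that differ from MT2A (14 in MT1E, 9 in MT1G and 14 in MT1X).
MT2A: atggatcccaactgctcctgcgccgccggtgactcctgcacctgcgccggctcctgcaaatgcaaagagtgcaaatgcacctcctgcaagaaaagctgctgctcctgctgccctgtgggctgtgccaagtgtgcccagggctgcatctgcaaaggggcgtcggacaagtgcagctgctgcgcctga
MT1E: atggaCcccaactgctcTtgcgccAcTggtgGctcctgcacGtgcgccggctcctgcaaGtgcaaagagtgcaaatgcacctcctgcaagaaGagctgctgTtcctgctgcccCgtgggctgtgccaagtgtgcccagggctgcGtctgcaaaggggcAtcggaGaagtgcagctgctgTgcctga
MT1G: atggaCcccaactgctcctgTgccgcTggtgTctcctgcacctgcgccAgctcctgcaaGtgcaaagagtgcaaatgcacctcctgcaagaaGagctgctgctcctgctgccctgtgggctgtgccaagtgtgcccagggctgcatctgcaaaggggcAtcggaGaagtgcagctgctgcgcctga
MT1X: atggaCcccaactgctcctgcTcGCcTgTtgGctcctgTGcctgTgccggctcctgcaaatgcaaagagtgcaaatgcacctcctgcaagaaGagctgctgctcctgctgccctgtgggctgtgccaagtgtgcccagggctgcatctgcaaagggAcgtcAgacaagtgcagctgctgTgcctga
How the authors treated reads that fit several copies is not given in the sources used here, so the split of counts among metallothioneins is uncertain, and the summed level is given beside the single genes.

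The promoters differed between the families in how many metal response element cores they hold. The core was searched as TGCACNC or TGCGCNC on both strands in the 250 bases before each gene's start in RefSeq (GRCh38.p14), where 24.8% of 35116 promoters held at least 1 match. MT2A held 7 matches, MT1H 8, MT1X 4 and MT1B 3, while 0.370% of all promoters held 4 or more; the other 5 metallothioneins have no entry. The 21 transporters with an entry have 30 promoters there, of which 11 held at least 1 match, and the highest number was 3, in SLC30A2. The matches are shown in capitals for MT2A and MT1X, the metallothioneins that reached the expression limit in every cell library, and for SLC30A1, which held 1. The windows are chr16:56608334-56608583 on the plus strand, chr16:56682220-56682469 on the plus strand and chr1:211579162-211579411 on the minus strand, each written on the gene's own strand.
MT2A promoter: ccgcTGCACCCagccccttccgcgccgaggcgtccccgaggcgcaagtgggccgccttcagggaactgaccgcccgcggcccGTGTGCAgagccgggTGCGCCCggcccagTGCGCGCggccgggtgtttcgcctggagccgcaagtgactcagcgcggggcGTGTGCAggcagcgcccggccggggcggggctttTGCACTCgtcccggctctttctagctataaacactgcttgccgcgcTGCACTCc
MT1X promoter: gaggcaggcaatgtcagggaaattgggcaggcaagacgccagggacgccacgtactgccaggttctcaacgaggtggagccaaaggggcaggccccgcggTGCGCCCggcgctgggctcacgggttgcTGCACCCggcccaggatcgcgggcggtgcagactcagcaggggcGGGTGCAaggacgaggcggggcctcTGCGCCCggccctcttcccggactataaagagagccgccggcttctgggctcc
SLC30A1 promoter: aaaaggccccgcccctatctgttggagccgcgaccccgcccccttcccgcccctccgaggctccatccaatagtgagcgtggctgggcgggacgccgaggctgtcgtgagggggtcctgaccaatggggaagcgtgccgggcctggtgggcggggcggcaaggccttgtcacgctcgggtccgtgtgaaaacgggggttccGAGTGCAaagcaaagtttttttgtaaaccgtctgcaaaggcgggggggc

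Depth set what could be seen. Vesicle libraries held 1748238 to 24358033 counts and cell libraries 24777352 to 37418506, so that 3 counts stood for 0.123 to 1.72 CPM (counts scaled to a common library total) in vesicles and 0.0802 to 0.121 CPM in cells. Vesicle libraries also held reads over genes that no cell library expressed. From 2036 such genes, with at most 10 counts in each cell library, a background by exonic length and GC content was estimated at 1.85% of vesicle counts in SW480 to 45.3% in SNU-C1, and at 0.0322% to 0.152% of cell counts. The 5 lines with the lowest vesicle background were SW480, COLO-201, HT-29, HCT 116 and LS513. The epithelial markers EPCAM and KRT8 averaged 274 ± 121 and 3232 ± 2355 CPM in vesicles, against 2579 ± 1795 and 4520 ± 2311 CPM in cells (SD, n = 10 each). Of the 10 epithelial markers tested, EPCAM and CDH1 were called lower in vesicles and none was called higher. Markers of fibroblasts and endothelium (4 genes in the table) summed to 22.5 to 223 CPM in vesicles and 0.577 to 12.1 CPM in cells, and all 4 were called higher in vesicles. So were 3 of 4 leukocyte markers tested, 2 of 3 of erythroid cells and platelets, 2 of 2 of keratinocytes and 1 of 1 of hepatocytes. Over all genes tested, 28.6% were called higher, against 6.92% of those that reached 0.407 CPM in every cell library. Each marker called higher was under 0.407 CPM in some cell library, as were most genes called higher. The part of such markers in the results below was not tested. The cell libraries of WiDr and HT-29, and those of LS123 and HCT 116, were alike beyond other pairs. The correlation across genes of their deviations from the mean of all lines was 0.805 for WiDr with HT-29 and 0.804 for LS123 with HCT 116, against at most 0.328 for other pairs, and the vesicle libraries of both pairs gave -0.36. The 10 lines may thus not be 10 independent replicates.

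Transporter transcripts were scarcer in vesicles than in cells of every line. Metallothionein transcripts gained on them in every line, but most metallothionein counts in SNU-C1 vesicles were expected as background. Among the 22 transporters tested, 4 were higher and 13 lower in vesicles, and all 7 metallothioneins tested were higher (edgeR quasi-likelihood test with the cell line as a block, Benjamini-Hochberg adjusted p under 0.05 over all 15130 genes tested). Of all genes tested, 28.6% were called higher and 28.1% lower. The filter on low counts passed 22 of the 24 transporters and 7 of the 9 metallothioneins, and 5 of those 7 and 5 of those 22 were under the filter limit in some cell library and could pass through their vesicle counts, so these counts are no measure of all members. The median log2 fold change of vesicles over cells was -1.36 for the transporters and 2.29 for the metallothioneins, against 0.01 for all genes. SLC30A8 and MT1M, nearly without counts in most cell libraries, enter these medians by rank alone and get no fold below. In bulk libraries, fewer vesicles that carry a transcript and fewer copies in each cannot be told apart.

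The number of metallothionein calls depended on the block: without it, 2 of the 7 (MT1G and MT1F) passed. It also depended on single lines, with 4 calls without HT-29 or without LS1034. Leaving out both WiDr and LS123, 1 line of each pair alike in cells, kept all 7 calls. Their metallothionein sums in vesicles were 0.663 and 0.359 times those in cells, and no other line had a lower sum in vesicles. This choice thus took out the lines that went against the calls, and leaving out HT-29 and HCT 116 instead was not tested. The transporter median was -0.90 without LoVo, where the median of all genes was 0.35, and between -0.99 and -0.62 under the other scalings, which moved the median of all genes to 0.38 with DESeq2 size factors, 0.48 with library size alone and 0.76 with upper-quartile scaling.

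**Figure D1:**
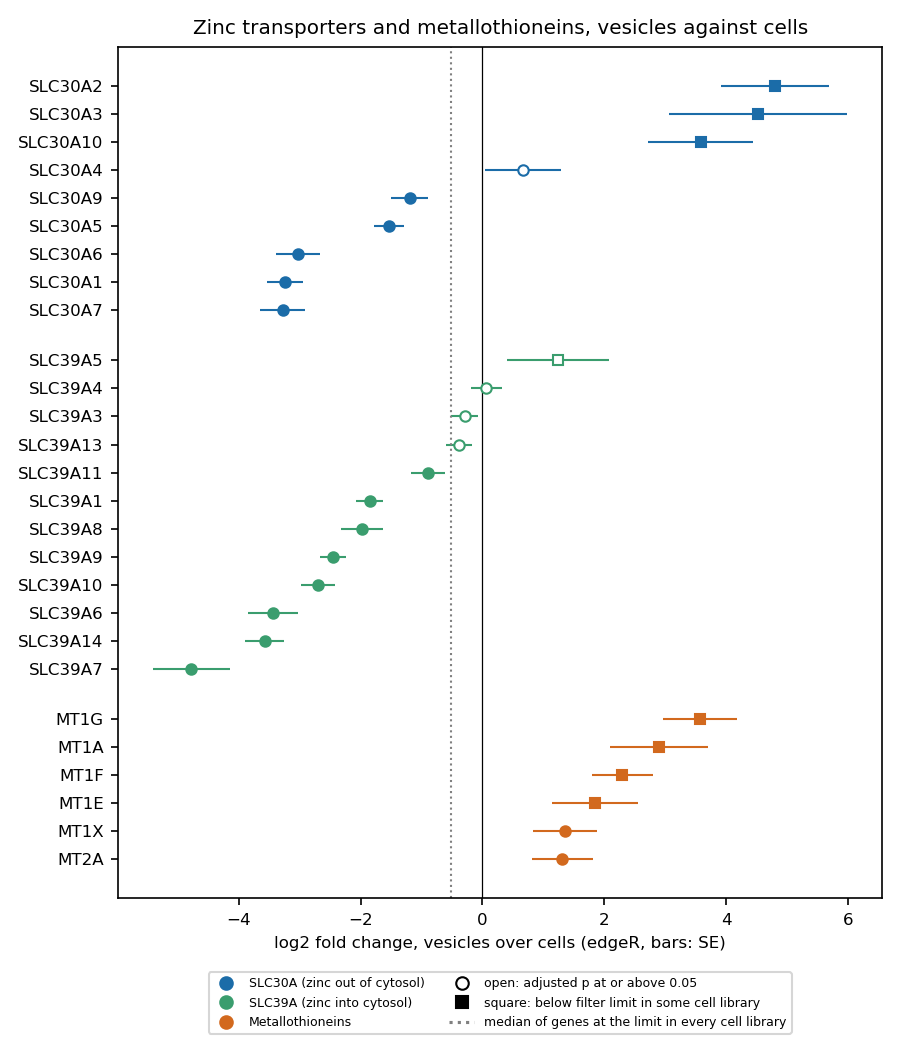
Log2 fold change of vesicles over cells for the members tested other than SLC30A8 and MT1M, with bars for the standard error; filled symbols passed an adjusted p of 0.05, circles reached the filter limit in every cell library and squares did not. The metallothioneins lie between 1.31 (MT2A) and 3.57 (MT1G) and the transporters between -4.78 (SLC39A7) and 4.81 (SLC30A2), so the families overlap: SLC39A5, SLC30A10, SLC30A3 and SLC30A2, all squares, lie at 1.24 to 4.81.

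Most of the higher calls among all genes came from genes low in cells. The families were therefore also read against genes present in every cell library, which were not matched by level. Among genes that reached the filter limit of 0.407 CPM in every cell library, 6.92% of 10064 were called higher, 42.1% were called lower, and the median log2 fold change was -0.51. Of the 17 transporters at that limit, 13 were lower and none was higher, with a median of -1.97. The other SLC genes at the limit had 71 of 145 lower and a median of -0.80. MT2A and MT1X were the metallothioneins at that limit, and both were higher. Other genes no longer than the longest metallothionein, 1889 exonic bases, had 66 higher and 70 lower of 588 at the limit, with a median of 0.06.

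Summed over each family, the transporters spanned a narrower range between lines than the metallothioneins. Their sum after TMM scaling was 610 CPM in SNU-C1 vesicles and 840 CPM in HCT 116 vesicles at the extremes, with a median of 683 CPM, against 1750 CPM in SW480 cells and 2989 CPM in LoVo cells with a median of 2230 CPM. No vesicle library reached the lowest cell library, and vesicle sums were 0.212 (LoVo) to 0.389 (SW480) of the cell sums. Expected background made up 3.62% (SW480) to 52.5% (SNU-C1) of the transporter counts in vesicles, so the vesicle sums hold unlike shares of background. With background subtracted, the log2 ratio of the sums was still below 0 in all 10 lines, from -1.94 to -0.91.

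The metallothionein sum spanned a far wider range. In vesicles it ran from 46.0 CPM in SNU-C1 to 4222 CPM in HT-29 with a median of 732 CPM, against 6.68 CPM in SNU-C1 cells to 2065 CPM in LS123 cells with a median of 291 CPM. The groups overlapped, and 8 lines were higher and 2 lower in vesicles. The vesicle sum was 15.7 times the cell sum in HT-29, 13.8 times in LS513, 3.88 times in SW480, 3.53 times in LS1034, 3.16 times in LoVo, 2.71 times in COLO-201, 1.18 times in HCT 116, 0.663 times in WiDr and 0.359 times in LS123. SNU-C1 gave 6.89 times, but 92.1% of its metallothionein counts in vesicles were expected as background, against 0.123% to 14.5% in the other lines.

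The ratio of metallothionein to transporter counts within a library needs no scaling between libraries. It was 0.0754 (SNU-C1) to 6.09 (HT-29) in vesicles with a median of 1.18, against 0.00279 (SNU-C1) to 1.08 (LS123) in cells with a median of 0.156. Vesicles exceeded cells in all 10 lines, by 1.12 times in LS123 and 1.89 times in WiDr at the low end and by 40.4 times in HT-29 and 52.7 times in LS513 at the high end. With expected background subtracted, the log2 change of this ratio was 0.97 (LS123) to 5.83 (LS513), above 0 in all 10 lines. In SNU-C1, 92.1% of the metallothionein counts in vesicles were expected as background, so its direction was not measured. WiDr and HT-29, whose cell libraries were alike, had ratios of 0.307 and 6.09 in vesicles, against 0.162 and 0.151 in cells.

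**Figure D2:**
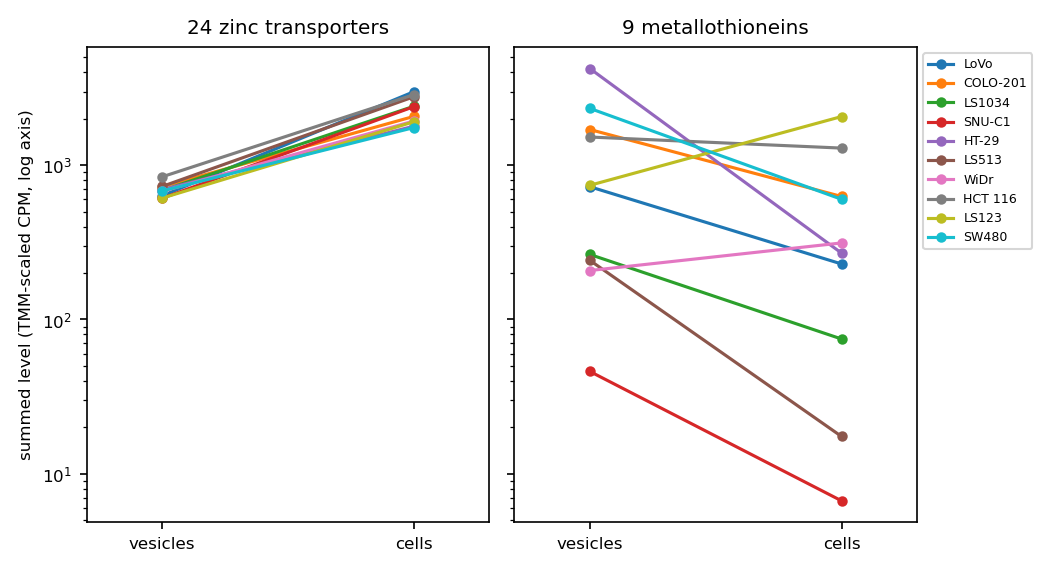
Summed TMM-scaled CPM (log axis) of the 24 zinc transporters and of the 9 metallothioneins in vesicles and cells, with a line joining the 2 libraries of each cell line. Transporter sums fall between 610 and 840 CPM in all vesicle libraries, while metallothionein sums run from 46.0 to 4222 CPM.

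The importers (SLC39A) were lower in vesicles in 8 of 12 tested, and none was higher. All 12 averaged 10 CPM or more in cells, a level at which 42.2% of all genes were lower and 5.29% higher. SLC39A7, which releases zinc from the endoplasmic reticulum and Golgi, had the lowest fold change of any gene tested. Its vesicle level was 5.49 CPM in WiDr, 4.85 in HT-29, 2.99 in LoVo, 1.93 in LS513, 1.65 in SW480, 1.58 in LS1034, 0.501 in COLO-201, and 0 in SNU-C1, HCT 116 and LS123. Its cell level was 70.8 CPM in HT-29, 36.4 in WiDr, 33.8 in LoVo, 32.3 in LS1034, 31.5 in SNU-C1 and in LS513, 30.6 in LS123, 29.5 in COLO-201, and 25.9 in HCT 116 and in SW480. The groups did not overlap, and all 10 lines were lower in vesicles, including HT-29, which stood above the other lines in cells. The log2 fold change was -4.78 ± 0.63 (SE; adjusted quasi-likelihood p = 2.06e-05). Its 206 vesicle counts were 0.771 times the number expected as background, and the library count was above that expectation only in HT-29 (107 counts against 30.0) and SW480 (32 against 22.1).

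SLC39A14, which imports zinc, manganese and iron not bound to transferrin, was the most abundant importer in cells. It had 58.5 CPM in HCT 116, 47.0 in WiDr, 42.6 in LoVo, 41.3 in SNU-C1, 37.7 in LS123, 25.6 in LS1034, 18.5 in HT-29, 17.6 in LS513, 13.7 in SW480 and 6.79 in COLO-201 vesicles. In cells it was at 345, 210, 562, 396, 287, 391, 156, 408, 292 and 252 CPM in the same order of lines. The highest vesicle library was far under the lowest cell library, with a log2 fold change of -3.57 ± 0.32 (SE; adjusted quasi-likelihood p = 1.36e-06).

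The paired plasma membrane importers SLC39A6 and SLC39A10, which can form a complex, were both lower in vesicles. SLC39A6 ran from 3.65 CPM (COLO-201) through a median of 16.5 CPM to 77.4 CPM (HCT 116) in vesicles, against 84.6 CPM (HT-29), 134 CPM and 446 CPM (HCT 116) in cells. HCT 116 was the highest line in both compartments, the groups did not overlap, and the log2 fold change was -3.44 ± 0.40 (SE; adjusted quasi-likelihood p = 8.00e-06). SLC39A10 ran from 8.08 CPM (COLO-201) through 17.8 CPM to 39.4 CPM (SNU-C1) in vesicles, against 95.4 CPM (WiDr), 113 CPM and 205 CPM (HCT 116) in cells, again without overlap, and its log2 fold change was -2.70 ± 0.28 (SE; adjusted quasi-likelihood p = 2.78e-06).

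Of the remaining importers, 4 more were lower. SLC39A9, a Golgi and plasma membrane importer, had 25.5 to 61.5 CPM in vesicles (median 37.8) and 148 to 303 CPM in cells (median 198), with a log2 fold change of -2.44 ± 0.21 (SE; adjusted quasi-likelihood p = 1.20e-06). SLC39A1, an importer of the plasma membrane, had 23.1 to 58.6 CPM in vesicles (median 37.8) and 66.3 to 281 CPM in cells (median 155), with a log2 fold change of -1.85 ± 0.22 (SE; adjusted quasi-likelihood p = 8.40e-06). Neither gene's groups overlapped, whereas those of the next importers did. SLC39A8, which carries zinc, manganese and cadmium, had 3.52 to 51.5 CPM in vesicles (median 19.8) and 46.1 to 124 CPM in cells (median 90.1), with a log2 fold change of -1.97 ± 0.34 (SE; adjusted quasi-likelihood p = 2.23e-04). SLC39A11 had 5.88 (SW480) to 85.1 CPM (COLO-201) in vesicles (median 21.6) and 8.28 (SW480) to 95.6 CPM (COLO-201) in cells (median 52.1). SW480 was lowest and COLO-201 highest in both compartments for SLC39A11. Its log2 fold change of -0.90 ± 0.28 (SE; adjusted quasi-likelihood p = 0.0140) lost its call under every other scaling (-0.53 to -0.16), without the block (-0.82), after background subtraction (-0.73), in the 5 lines of lowest background (-1.22) and without LoVo (-0.59), with adjusted p of 0.0672 to 0.636.

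SLC39A4, SLC39A13, SLC39A3 and SLC39A5 passed the test in neither direction. SLC39A4, the apical importer of dietary zinc in enterocytes, had 27.0 (SW480) to 197 CPM (LS513) in vesicles with a median of 61.7 CPM, against 27.8 (SW480) to 153 CPM (LS1034) in cells with a median of 67.6 CPM. It was higher in 5 lines and lower in 5, at a log2 fold change of 0.07 ± 0.26 (SE; adjusted quasi-likelihood p = 0.838), and was called higher with library size alone (0.54, adjusted p = 0.0381) and with upper-quartile scaling (0.81, adjusted p = 0.0119). SLC39A13, of the early secretory pathway, had 11.2 to 38.3 CPM in vesicles (median 27.7) and 16.6 to 63.1 CPM in cells (median 32.4), at -0.39 ± 0.21 (log2 fold change, SE; edgeR adjusted p = 0.131). SLC39A3, a plasma membrane importer, had 11.4 to 37.4 CPM in vesicles (median 18.5) and 16.0 to 40.9 CPM in cells (median 21.7), at -0.29 ± 0.22 (log2 fold change, SE; edgeR adjusted p = 0.275). The sign for SLC39A13 and SLC39A3 turned with scaling, and that for SLC39A4 when COLO-201 or LS513 was left out. SLC39A5, known from the basolateral side of enterocytes, had 29.7 CPM in LS1034, 16.6 in SNU-C1, 13.2 in LS123, 12.9 in LoVo, 12.6 in WiDr, 6.92 in SW480, 5.52 in LS513, 4.62 in HT-29, 1.98 in HCT 116 and 1.29 in COLO-201 vesicles. Its cell level was 80.8, 12.0, 0.0397, 4.81, 2.47, 4.62, 4.19, 9.70, 0 and 0.673 CPM in the same order of lines. LS1034 was the highest line in both compartments, and the log2 fold change was 1.24 ± 0.84 (SE; adjusted quasi-likelihood p = 0.222). SLC39A2 and SLC39A12 were not tested: they had 115 and 158 vesicle counts in all, or 0.838 and 1.10 times the expected background, and 17 and 16 cell counts.

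The exporters (SLC30A) split by their level in cells. All 5 that averaged 10 CPM or more in cells were lower in vesicles, and the 4 called higher were each under 0.5 CPM in the median cell library. All genes split by cell level too. Among those averaging 10 CPM or more in cells, 42.2% were lower and 5.29% higher. Higher calls made up 28.6% of all genes tested, but 6.92% of those at the filter limit in every cell library. SLC30A7, which with SLC30A5 and SLC30A6 loads zinc into the early secretory pathway, had 47.0 CPM in WiDr, 28.9 in LS123, 25.1 in LoVo, 23.2 in SNU-C1, 15.4 in HT-29, 12.0 in COLO-201, 8.09 in LS513, 7.55 in LS1034, 6.50 in SW480 and 2.42 in HCT 116 vesicles. Cell levels were 172, 85.5, 232, 133, 159, 124, 172, 70.9, 89.4 and 152 CPM in the same order of lines. The groups did not overlap, and the log2 fold change was -3.28 ± 0.37 (SE; adjusted quasi-likelihood p = 5.60e-06). HCT 116, lowest in vesicles, was a middle line in cells.

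SLC30A1, the exporter of the plasma membrane and a target of MTF1, had 29.5 CPM in HT-29, 26.0 in LoVo, 21.6 in COLO-201, 20.4 in LS1034, 17.1 in SW480, 14.7 in SNU-C1, 14.4 in LS513, 12.6 in WiDr, 11.4 in HCT 116 and 11.0 in LS123 vesicles. Its cell level was 95.3, 299, 179, 218, 105, 282, 410, 110, 125 and 62.5 CPM in the same order of lines. Vesicles were lower in every line without overlap, with a log2 fold change of -3.24 ± 0.29 (SE; adjusted quasi-likelihood p = 1.37e-06). LS513, the highest line in cells, was below the vesicle median. SLC30A1 lay on the other side of 0 from the metallothioneins, and any part of MTF1 in either change was not tested.

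SLC30A6 had 3.74 to 44.0 CPM in vesicles (median 15.9) and 84.9 to 163 CPM in cells (median 107), a log2 fold change of -3.03 ± 0.36 (SE; adjusted quasi-likelihood p = 8.59e-06). SLC30A5, its partner in a heteromeric transporter, had 23.8 to 96.5 CPM in vesicles (median 53.8) and 108 to 335 CPM in cells (median 130), a log2 fold change of -1.53 ± 0.24 (SE; adjusted quasi-likelihood p = 1.08e-04). Both had vesicle and cell levels that did not overlap. SLC30A9, which exports zinc from mitochondria, had the highest level of any transporter in vesicles and lost the least among these 5 exporters. It had 33.2 (SNU-C1) to 317 CPM (HCT 116) in vesicles (median 157) and 190 to 500 CPM (HCT 116) in cells (median 301), with overlap. Its log2 fold change of -1.19 ± 0.31 (SE; adjusted quasi-likelihood p = 0.00417) lost its call under upper-quartile scaling (-0.45), after background subtraction (-0.51), in the 5 lines of lowest background (-0.40) and without LoVo (-0.75), with adjusted p of 0.131 to 0.164. SLC30A4, of endosomes, had 3.74 to 39.1 CPM in vesicles (median 8.17) and 0.558 to 23.8 CPM in cells (median 8.28), at a log2 fold change of 0.67 ± 0.63 (SE; adjusted quasi-likelihood p = 0.379) that became -0.27 in the 5 lines of lowest background.

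In 10 transporters every vesicle library was below every cell library (SLC30A1, SLC30A5, SLC30A6, SLC30A7, SLC39A1, SLC39A6, SLC39A7, SLC39A9, SLC39A10 and SLC39A14), as for 4.35% of all genes tested. SLC30A8 was the transporter with every vesicle library above every cell library, as for 8.57% of all genes.

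The exporters called higher in vesicles were genes with few counts in most cell libraries. SLC30A8, the transporter of insulin granules, had 50.8 CPM in WiDr, 33.2 in LS123, 19.7 in SNU-C1, 12.7 in LoVo, 6.15 in LS1034, 5.06 in HCT 116, 2.86 in COLO-201, 2.83 in LS513, 0.725 in HT-29 and 0.516 in SW480 vesicles, against 6 counts in all cell libraries together. SLC30A3, the transporter of synaptic vesicles, had 26.7 CPM in LS123, 22.1 in LS1034, 20.8 in WiDr, 18.8 in SNU-C1, 14.5 in LoVo, 11.5 in SW480, 9.25 in LS513, 8.36 in HCT 116, 5.71 in HT-29 and 3.22 in COLO-201 vesicles. In cells SLC30A3 had 26.0 CPM in LS123, 24.8 in SW480, 13.6 in HCT 116, 3.70 in LoVo, 0.538 in LS1034, and 0 to 1 count in the other 5 lines. SW480 and HCT 116 were lower in vesicles than in cells, so 2 of the 3 lines that expressed SLC30A3 most went against the call.

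SLC30A10, a manganese exporter, had 28.3 CPM in SW480, 26.6 in SNU-C1, 20.5 in WiDr, 16.9 in LS123, 10.6 in LoVo, 9.38 in LS513, 7.55 in LS1034, 5.94 in HCT 116, 2.65 in COLO-201 and 0.544 in HT-29 vesicles. Cell values were 27.9, 1.02, 0.419, 0.278, 0.255, 0.210, 9.15, 0.435, 1.24 and 0.0833 CPM in the same order of lines. HT-29 was lowest and SW480 highest in both compartments. SLC30A2, known from secretory vesicles of the mammary gland, had 13.4 CPM in WiDr, 11.8 in LS123 and in LS1034, 10.6 in SNU-C1, 9.67 in LoVo, 7.38 in SW480, 4.88 in LS513, 0.660 in HCT 116, 1.29 in COLO-201 and 3.94 in HT-29 vesicles. Its cell level was 3.74 CPM in SNU-C1, 1.29 in HT-29, 0.997 in SW480, 0.372 in WiDr, 0.236 in LS1034, 0.198 in LS123, 0.159 in LoVo, and 0 in LS513, COLO-201 and HCT 116. SNU-C1, HT-29 and SW480 held most of its cell counts, and none of these was its highest vesicle library. The vesicle counts were 2.27 times the expected background for SLC30A8, 1.46 for SLC30A2, 1.81 for SLC30A3 and 3.03 for SLC30A10, against 4.90 to 64.7 times for the transporters called lower other than SLC39A7. After background subtraction, SLC30A2, SLC30A3 and SLC30A10 had log2 fold changes of 3.13, 3.57 and 2.65 against 4.81, 4.53 and 3.58 before it and no longer passed (edgeR adjusted p of 0.0524, 0.149 and 0.0935), and SLC30A8 was too low to test.

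**Figure D3:**
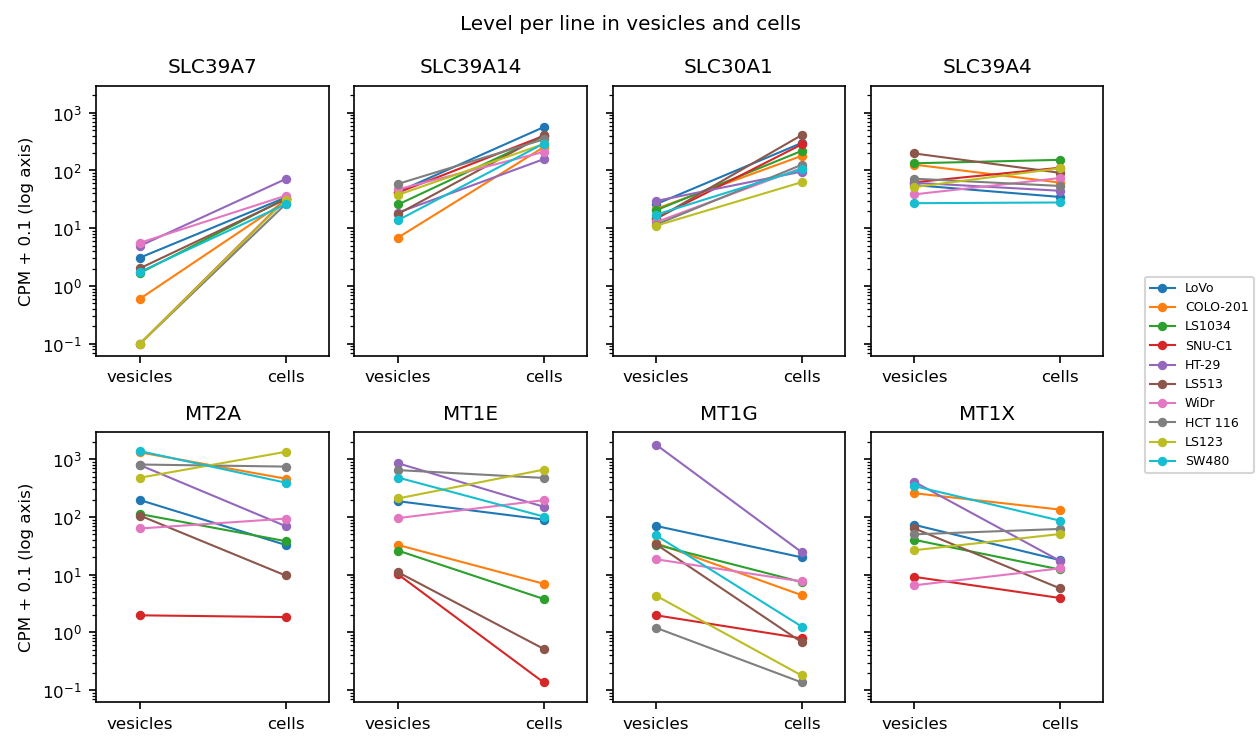
Level of 4 transporters (upper row) and 4 metallothioneins (lower row) in vesicles and cells, as CPM + 0.1 on a log axis, with a line joining the libraries of each cell line. SLC39A7, SLC39A14 and SLC30A1 are lower in vesicles in all 10 lines, SLC39A4 in 5, and MT1G is higher in all 10. MT1G rests on 6 vesicle counts in SNU-C1, under its expected background, and on 1 and 2 cell counts in HCT 116 and LS123.

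The metallothioneins were led by MT2A, the most abundant member in both compartments. MT2A had 1380 CPM in SW480, 1314 in COLO-201, 810 in HCT 116, 789 in HT-29, 479 in LS123, 196 in LoVo, 112 in LS1034, 105 in LS513, 63.0 in WiDr and 1.88 in SNU-C1 vesicles. The cell libraries held 393, 460, 745, 69.4, 1342, 32.7, 38.0, 9.60, 93.4 and 1.74 CPM in the same order of lines. Vesicles were higher in 8 lines and lower in LS123 and WiDr, and SNU-C1 was far below the other lines in both compartments. SNU-C1 counts among the 8 with 6 vesicle counts where 17.6 were expected as background, so its direction was not measured. The log2 fold change was 1.31 ± 0.51 (SE; adjusted quasi-likelihood p = 0.0377), 0.72 (adjusted p = 0.570) without the block, and 1.95 (adjusted p = 0.0106) after background subtraction.

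MT1E and MT1X behaved alike at the level of the call. MT1E had 10.0 (SNU-C1) to 850 CPM (HT-29) in vesicles (median 141) and 0.0363 (SNU-C1) to 660 CPM (LS123) in cells (median 95.9), a log2 fold change of 1.85 ± 0.71 (SE; adjusted quasi-likelihood p = 0.0391). MT1X had 6.44 (WiDr) to 406 CPM (HT-29) in vesicles (median 56.6) and 3.85 (SNU-C1) to 134 CPM (COLO-201) in cells (median 17.6), a log2 fold change of 1.36 ± 0.52 (SE; adjusted quasi-likelihood p = 0.0376). Vesicles were higher in 8 lines for MT1E and in 7 for MT1X, and LS123 and WiDr were lower for both. The calls of MT2A, MT1E and MT1X were lost when any of COLO-201, LS1034, HT-29, LS513 or SW480 was left out, that of MT2A also without LoVo and that of MT1X also without SNU-C1, at adjusted p of 0.0554 to 0.0908. Without the block, MT1E was at 0.60 (adjusted p = 0.685) and MT1X at 1.67 (adjusted p = 0.0746).

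MT1G showed the widest gap between a single line and the rest. It had 1780 CPM in HT-29, 69.7 in LoVo, 47.6 in SW480, 35.0 in COLO-201, 33.4 in LS513, 33.0 in LS1034, 18.4 in WiDr, 4.22 in LS123, 1.88 in SNU-C1 and 1.10 in HCT 116 vesicles. Its cell level was 24.4, 19.9, 1.16, 4.32, 0.577, 7.34, 7.54, 0.0794, 0.690 and 0.0362 CPM in the same order of lines. All 10 lines were higher in vesicles, though the 6 counts of SNU-C1 were fewer than its expected background. HCT 116 held 5 counts in vesicles and 1 in cells, and LS123 held 15 and 2. Both cell counts lie under the floor of 3 counts. The log2 fold change of MT1G was 3.57 ± 0.60 (SE; adjusted quasi-likelihood p = 2.08e-04). HT-29 was the highest line in both compartments, and its vesicle library held 39267 counts of the gene, against 586 in its cell library.

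MT1A had 106 CPM in HT-29, 95.3 in LoVo, 26.0 in SW480, 17.2 in LS1034, 7.07 in LS513, 4.78 in LS123, 3.82 in WiDr, 3.44 in SNU-C1, 1.29 in COLO-201 and 0.220 in HCT 116 vesicles. In cells MT1A had 26.1 CPM in LoVo, 10.3 in LS1034, 9.41 in SW480, 1.81 in WiDr, 1.46 in HT-29, 0.673 in COLO-201, 0.262 in LS513, and 0 to 2 counts in SNU-C1, HCT 116 and LS123. The level was higher in vesicles in all 10 lines, but HCT 116, with 1 vesicle and 2 cell counts, lies under the floor of 3 counts and its direction was not measured. The log2 fold change was 2.91 ± 0.80 (SE; adjusted quasi-likelihood p = 0.00657), or 2.40 (adjusted p = 0.0966) without the block. MT1F had 7.20 (SNU-C1) to 121 CPM (HT-29) in vesicles (median 18.9) and 0.291 (SNU-C1) to 21.0 CPM (COLO-201) in cells (median 7.40). It too was higher in all 10 lines, though by 8.58 against 8.55 CPM in HCT 116 and with 23 counts where 27.3 were expected as background in SNU-C1, at a log2 fold change of 2.29 ± 0.50 (SE; adjusted quasi-likelihood p = 0.00128).

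MT1M, MT1B and MT1H were near 0 in most cell libraries. MT1M had 52.9 CPM in LoVo, 13.2 in HT-29, 6.26 in SNU-C1, 5.45 in LS1034, 3.58 in WiDr, 2.53 in LS123, 2.06 in LS513, 1.10 in HCT 116, 0.572 in COLO-201 and 0.103 in SW480 vesicles. In cells it had 23.6 CPM in LoVo, where 739 of its 741 cell counts lay, 1 count each in HCT 116 and SW480, and 0 in the other lines. Its call (edgeR adjusted p = 3.17e-04) rested on lines with 0 or 1 count in cells, so no fold is given. MT1B and MT1H were below the filter and not tested. MT1B had 1442 counts in HT-29 vesicles and 0 in HT-29 cells, which makes it at least 523-fold higher against a floor of 3 counts in the cell library. The other vesicle libraries held 57 MT1B counts in SW480, 10 in SNU-C1, 9 in HCT 116, 8 in LS1034, 5 in LoVo, 4 in WiDr, 2 in LS513, 1 in LS123 and 0 in COLO-201, and the other cell libraries 30 in LS123, 10 in HCT 116, 2 in COLO-201 and 0 in the rest. MT1H had 2030 counts in HT-29 vesicles and 4 in HT-29 cells, and in the other vesicle libraries 55 counts in COLO-201, 41 in LS1034, 29 in WiDr, 20 in LS513, 10 in SNU-C1 and in LoVo, 6 in SW480, 4 in HCT 116 and 2 in LS123. The other cell libraries held 13 MT1H counts in LS1034, 1 each in WiDr, COLO-201 and SNU-C1, and 0 in the rest. HT-29 was thus the highest vesicle library for MT1E, MT1X, MT1G, MT1A, MT1F, MT1B and MT1H, but not for MT2A or MT1M.

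The share of MT2A in the metallothionein counts was close between compartments in 5 lines. It was 77.2% in vesicles and 73.3% in cells of COLO-201, 64.7% and 65.0% in LS123, 59.2% and 65.3% in SW480, 53.2% and 57.8% in HCT 116, and 30.3% and 29.8% in WiDr. In HT-29, MT1G held 42.1% of metallothionein counts in vesicles and 9.07% in cells, and MT1E held 20.1% in vesicles and 55.8% in cells. In WiDr, where the MT2A share was close, MT1E held 46.0% in vesicles and 62.4% in cells, and MT1G 8.85% in vesicles and 2.41% in cells. LoVo was the line with a sizeable MT1M share, 7.31% in vesicles and 10.3% in cells. SNU-C1 had 147 metallothionein counts in vesicles, most of them expected background, so its shares there carry little information.

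**Figure D4:**
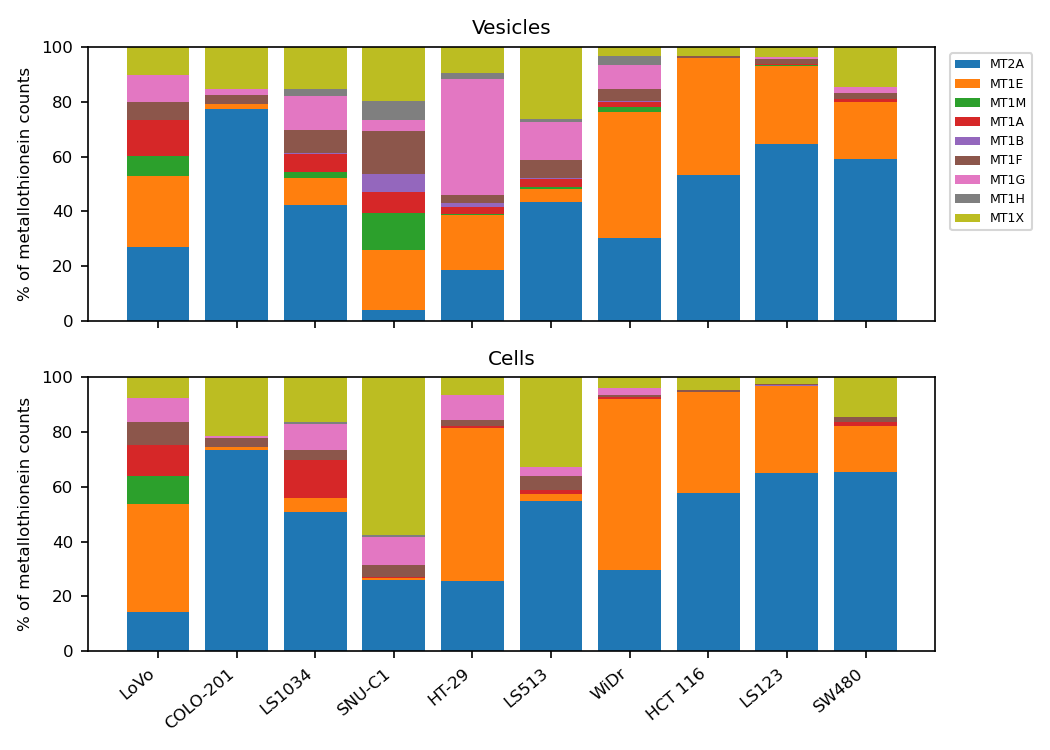
Share of each metallothionein in the metallothionein counts of each line, in percent, for vesicles (upper panel) and cells (lower panel). MT2A holds 77.2% and 73.3% in COLO-201 vesicles and cells, while MT1G holds 42.1% in HT-29 vesicles and 9.07% in HT-29 cells.

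Per kilobase of exonic length, which allows genes to be set side by side, MT2A and MT1E stood further above the highest transporters in vesicles than in cells. Mean vesicle levels per kilobase were 404 CPM for MT2A, 270 for MT1G, 242 for MT1E, 71.9 for MT1X and 66.9 for MT1A, followed by 22.1 for SLC30A9, 16.4 for SLC39A4 and 12.0 for SLC39A1 among the transporters. MT1B, MT1F, MT1H and MT1M lay under SLC30A9 in vesicles, at 20.4, 18.6, 16.6 and 9.32 CPM per kilobase. Mean cell levels per kilobase were 245 CPM for MT2A and 160 for MT1E, followed by 47.5 for SLC39A14, 47.1 for SLC39A6, 46.0 for SLC39A1 and 44.8 for SLC30A9. The other metallothioneins lay under these transporters in cells, from 22.7 CPM per kilobase for MT1X down to 0.0999 for MT1H. MT1G stood at 8.80 CPM per kilobase in cells, and its vesicle mean rests on HT-29. The spread between lines was as wide as the mean for MT2A, at 525 ± 521 CPM in vesicles and 318 ± 438 CPM in cells (SD, n = 10 each).

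Lines differed far more in metallothioneins than in transporters. Among members averaging 10 CPM or more in cells, the SD across lines of the log2 level had a median of 0.97 in vesicles and 0.54 in cells for the 17 transporters, and of 2.39 in vesicles and 2.98 in cells for the 3 metallothioneins (MT2A, MT1E and MT1X). For all genes at that level these medians were 0.88 in vesicles and 0.63 in cells. The metallothionein SDs include SNU-C1, with 1 MT1E count in cells and 6 MT2A counts in vesicles, where 17.6 were expected as background. The spread without SNU-C1 was not tested.

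Whether a line with more transcript in its cells also had more in its vesicles was asked by correlating log2 CPM in vesicles with that in cells over the 10 lines, for each of 15130 genes (permutation test with 100000 resamples, two-sided, Benjamini-Hochberg adjusted over all genes). Pearson's r had a median of 0.69 for the 7 metallothioneins (0.55 to 0.89) and of 0.34 for the 22 transporters (-0.47 for SLC30A6 to 0.71 for SLC39A3), against 0.38 for all genes. MT1E was the member called, as were 2.45% of all genes, with r = 0.89 (permutation p = 4.90e-04, adjusted p = 0.0378) and Spearman's rho = 0.81 (permutation p = 0.00688, adjusted p = 0.140). Its r was 0.78 without LS513 and SNU-C1, the lines farthest from the median cell level, and 0.96 (adjusted p = 0.0545) without WiDr and LS123. At an unadjusted p under 0.05, 4 metallothioneins and 4 transporters passed, against 20.7% of all genes.

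MT2A had r = 0.83 (permutation p = 0.00258, adjusted p = 0.0702) with rho = 0.68 (permutation p = 0.0344, adjusted p = 0.242), and 0.75 without LS123 and SNU-C1. MT1G had r = 0.79 (permutation p = 0.00444, adjusted p = 0.0854) with rho = 0.73 (permutation p = 0.0205, adjusted p = 0.202), and 0.66 without HCT 116 and LS123. The r of MT1M, 0.61, rested on LoVo and became -0.75 without LoVo and HCT 116. Among the transporters, SLC39A3 had r = 0.71 (permutation p = 0.0194, adjusted p = 0.159) with rho = 0.71 (permutation p = 0.0260, adjusted p = 0.221), and 0.26 without LS1034 and LS123. No transporter passed the adjusted threshold.

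**Figure D5:**
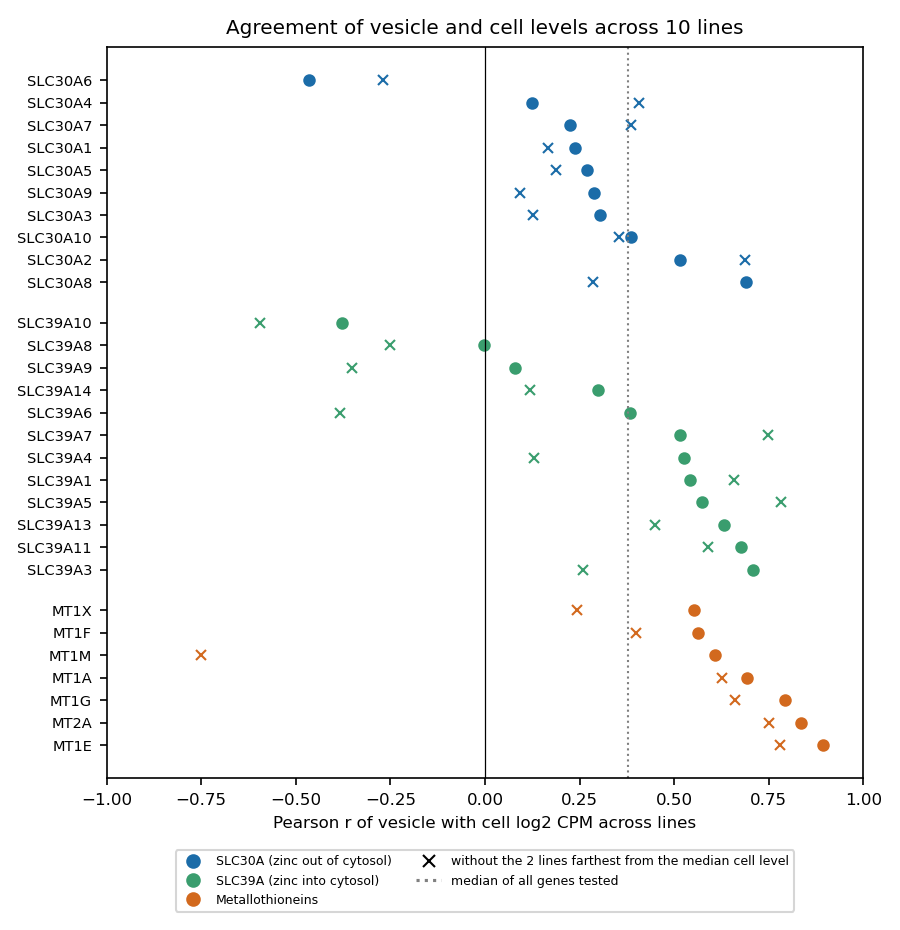
Pearson's r of vesicle with cell log2 CPM across 10 lines for each member tested (circles), and without the 2 lines farthest from the median cell level (crosses); the dotted line is the median of all genes, 0.38. The metallothioneins lie between 0.55 and 0.89 over 10 lines, and the transporters between -0.47 and 0.71.

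Of 15 other genes of zinc and copper handling tested, among 16 in the table, 3 were called higher and 6 lower in vesicles, against 28.6% and 28.1% of all genes, with a median log2 fold change of -0.09. The 3 higher were the zinc transporter TMEM163 at 5.50 ± 1.14, the metallothionein MT3 at 4.78 ± 0.99 and the copper transporter SLC31A2 at 2.24 ± 0.62 (log2 fold change, SE), each averaging under 4 CPM in cells and named after their values were seen. The 3 with the smallest adjusted p were lower: the divalent metal transporter SLC11A2 at -2.44 ± 0.22, the copper importer SLC31A1 at -2.32 ± 0.26, and the cation channel TRPM7 at -1.84 ± 0.25 (log2 fold change, SE; edgeR adjusted p of 1.36e-06, 5.95e-06 and 3.20e-05). MTF1, named here for its role as the inducer of metallothionein genes, averaged 17.4 ± 10.7 CPM in vesicles and 30.6 ± 6.40 CPM in cells (SD, n = 10 each), at a log2 fold change of -0.99 (edgeR adjusted p = 0.00576). The copper-zinc enzyme SOD1 and the copper chaperones CCS, ATOX1 and COX17, with log2 fold changes of -0.09 to 0.57, passed the test in neither direction.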

How the data were processed

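The deposited files hold whole-number counts of reads per gene for each of the 20 libraries; the authors made them with STAR and featureCounts on hg19, per the submitters' processing notes, whose versions, strand setting and treatment of multi-mapping reads are not given in the sources used here. Groups came from the labels, and vesicle and cell libraries were paired by the cell line that the labels name; the deviations of a line's vesicle and cell libraries from their compartment means correlated across genes at 0.0846 to 0.546 in all 10 lines. Genes passing edgeR's filterByExpr (version 4.0.16, R 4.3.3) were scaled by TMM and tested with the robust quasi-likelihood fit, vesicles over cells, with the cell line as a block, and p was adjusted by Benjamini-Hochberg over all genes tested at a threshold of 0.05. Levels are CPM after TMM scaling, and log2 levels used a prior count of 2. Standard errors were derived from the fold change and its F statistic, on the log2 scale.

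Background was a Poisson model of vesicle counts on exonic length and GC content (GENCODE 29, 98.3% of genes matched by name), fitted to genes that no cell library held at over 10 counts. With 1 library per line and compartment, p-values measure the spread between lines, and floors cover counting error only. The members and gene lists were chosen with earlier results of these data known. Members averaging 10 CPM or more in either compartment are named with values, and values of every line are given for SLC39A7, MT2A, the largest changes of each family and members with a line at least 10 times the median. Alternatives were other scalings, no filter, DESeq2 (1.42.0), no block, background subtraction, the 5 lines of lowest background, and leaving out lines. Protein sequences and ZNF658 were not used here.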

Additional observations from a re-analysis of the deposited data

Results flagged for a closer look

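In 3 of 54 groups of 10 libraries, the gap between the most extreme library and its nearest neighbour was large against the range of the group (Dixon's test at the 95% level), where chance gives about 1 in 20. SLC39A8 had 3.52 CPM (16 counts) in HCT 116 vesicles, below 12.7 to 51.5 CPM in the vesicles of the other lines, although HCT 116 was the highest line for this gene in cells. SLC39A7 had 70.8 CPM (1700 counts) in HT-29 cells, above 25.9 to 36.4 CPM in the other cell libraries, which include the closely similar WiDr cells at 36.4 CPM. MT2A had 1.88 CPM (6 counts) in SNU-C1 vesicles, below 63.0 to 1380 CPM in the vesicles of the other lines, and SNU-C1 was also the lowest line in cells.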

How the results depend on the processing

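Leaving aside the scalings, which move all genes alike, the metallothionein and transporter medians lay 3.18 (no replicate block) to 4.27 (without COLO-201) apart. No metallothionein was called lower under any alternative. The metallothionein median, 2.29 in the main test, holds MT1M and other members that could pass the filter through their vesicle counts. MT2A and MT1X, free of that limit, were at 1.31 and 1.36, and the transporters free of it had a median of -1.97. The transporter median of -1.36 became -0.99 with DESeq2 size factors, -0.89 with library size alone, -0.62 with upper-quartile scaling, -1.07 with no filter, -0.92 after background subtraction and -0.99 with the DESeq2 test, and leaving out a line gave -1.49 to -0.90 (lowest without SW480, highest without LoVo). Importers called higher numbered 1 with library size, upper-quartile scaling or the DESeq2 test and 2 with no filter, against 0. Exporters called higher numbered 2 with no replicate block, 0 after background subtraction and 2 in the 5 lines of lowest background, against 4. Metallothioneins called higher numbered 2 with no replicate block, and 4 to 7 when a line was left out. The block changed no call of a transporter other than SLC30A3, SLC30A10 and SLC39A11. Members whose vesicle level was called correlated with the cell level numbered 2 with library size (MT1E and MT2A), 0 without WiDr and LS123 and 0 without the 2 farthest lines, against 1. Signs turned for members without a call: SLC39A3 to 0.082 (DESeq2 size factors) and 0.080 (DESeq2 test), 0.18 (library size), 0.45 (upper quartile) and -0.39 to 0.0077 over lines left out, SLC39A13 to 0.091 (library size) and 0.36 (upper quartile), SLC39A5 to -0.18 (no replicate block), SLC30A4 to -0.27 (5 lines) and SLC39A4 to -0.049 to 0.34 over lines left out. Correlations turned for SLC39A8 to 0.12 (library size), SLC30A1 to -0.17 and SLC39A9 to -0.21 (without WiDr and LS123), and SLC39A9 to -0.35 and SLC39A6 to -0.38 (without the farthest lines). The cause was not tested. SLC39A7 and SLC39A2 were limited by vesicle counts of 0.771 and 0.838 times the expected background.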
